A study of Mus musculus with 12 samples.

Results

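The astroglia and Bergmann glia genes described here are 10 protein-coding genes, Aqp4, Gfap, Nes, Slc1a3, Fabp7, Aldh1l1, Hopx, Gdf10, Sox9 and Glul, chosen by symbol, and all 10 were found among the 31091 genes of the deposited table. The choice was made with earlier results of these data known, so the 10 genes are not independent of the data. The values of these genes come from 3 libraries of Znhit3 conditional knockout (cKO) mice and 3 libraries of control mice labelled WT, all from granule cell progenitors at postnatal day 3 (P3). The Znhit3 protein carries a zinc finger and helps to assemble small nucleolar ribonucleoproteins. The series also holds 6 libraries from P6, which were not analysed here. The sources used here do not give the Cre driver, how the cells were isolated, or whether a library came from 1 animal or a pool. The p-values therefore set a difference against the spread between these libraries, which may be technical. Levels are FPKM, which is counted reads scaled by gene length and by the reads of the library. A difference is the mean log2(FPKM + 1) in cKO minus that in control, given with its standard error (SE). A gene was called at an adjusted p under 0.05 in limma, fitted over the 13538 genes whose mean reached 1 FPKM.

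Bergmann glia are the radial astroglia of the cerebellar cortex. Their cell bodies lie in the Purkinje cell layer, and their fibres span the molecular layer to the surface, where granule cell precursors divide and along which newborn granule neurons migrate inward. Astroglia clear glutamate from the extracellular space, convert it to glutamine, buffer potassium and move water at endfeet on blood vessels. Granule cell progenitors are neuronal precursors, and the genes below are known chiefly as glial or radial glial genes, apart from Nes and Sox9, which other neural progenitors also use.

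Of the 10 genes 6 were called higher in cKO libraries, none was called lower and 4 were not called. Aqp4, Slc1a3, Gfap, Nes, Sox9 and Gdf10 rose, by between 1.15-fold and 1.47-fold in mean FPKM. Over all tested genes 13.4% were called higher and 5.74% lower. The median difference of the 10 genes was 0.26, beside 0.03 over all tested genes. All 3 cKO values lay above all 3 control values for 7 of the 10 genes, and for 27.2% of all tested genes. In bulk libraries, more cells of a type and more RNA per cell cannot be told apart. The members rested on between 640 reads, the lowest library for Hopx, and 59590 reads, the highest for Slc1a3.

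Libraries held between 29119803 and 40281292 counted reads in cKO and between 32278245 and 52961445 in control. Znhit3 averaged 4.20 ± 0.32 FPKM in cKO and 8.78 ± 0.32 FPKM in control libraries (SD, n = 3 each), lower in cKO as the labels state. Of all calls 70.0% were higher in cKO, a share that was 34.1% with upper quartile scaling, 56.8% with quantile normalization and 81.7% with TPM scaling. The 6 called genes had positive differences under every one of 17 alternative settings.

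**Figure D1:**
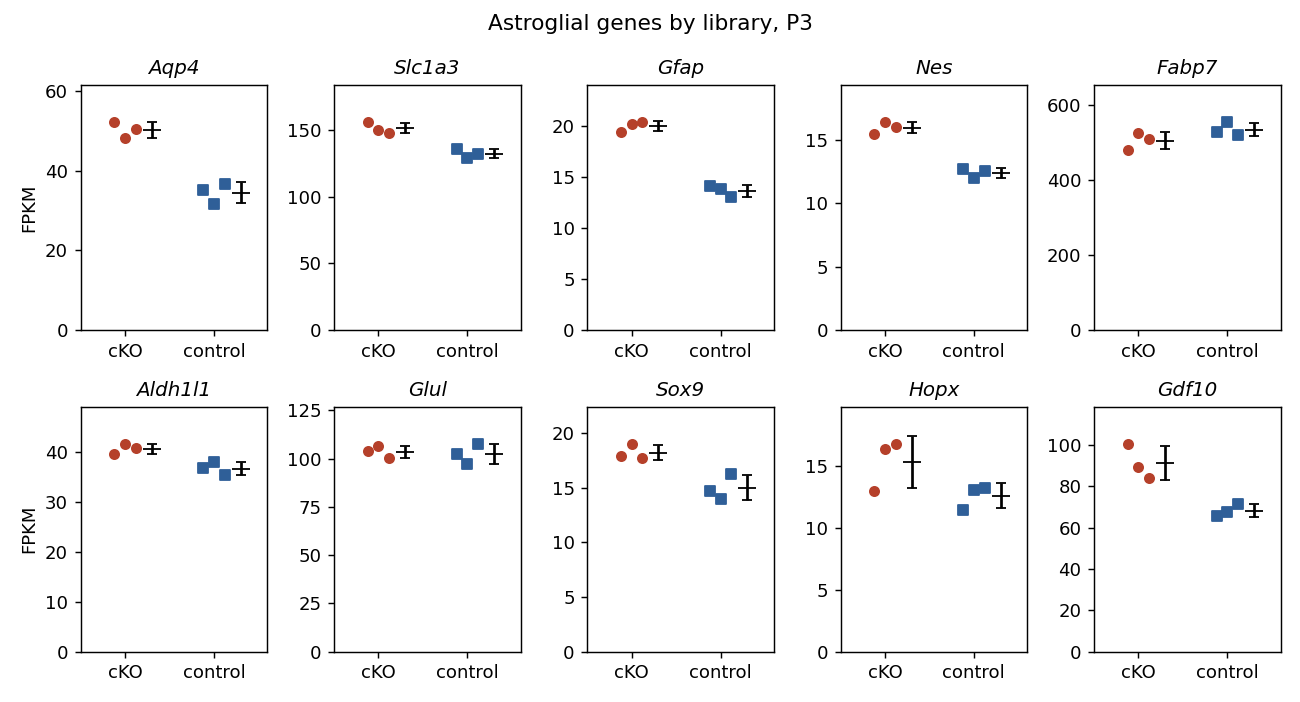
FPKM of each of the 10 genes in the 3 cKO libraries (red circles) and the 3 control libraries (blue squares) at P3, with the mean and SD in black. The groups separate for 7 genes and overlap for Fabp7, Glul and Hopx.

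The levels spanned a wide range. Fabp7, which encodes a brain fatty acid binding protein of radial glia, stood first in both groups, with a mean of 503.5 FPKM in cKO and 532.9 FPKM in control libraries, rank 38 and rank 35 among all tested genes. It made up 49.8% of the summed FPKM of the 10 genes in cKO and 55.5% in control. Slc1a3 and Glul followed with no overlap between neighbours in either group, except that Glul and Gdf10, next in order, overlapped in cKO. In control the neighbours Aldh1l1 and Aqp4 overlapped, as did Sox9, Gfap, Hopx and Nes, which stood at 14.97, 13.64, 12.58 and 12.41 FPKM. In cKO Aqp4 (50.23 FPKM) stood clear above Aldh1l1 (40.69 FPKM). Gfap, Sox9 and Nes, next in the cKO order, did not overlap each other, and Nes overlapped Hopx at its foot. Atoh1, the transcription factor gene that specifies granule cell progenitors, averaged 35.03 FPKM in cKO and 37.53 FPKM in control. Fabp7, Slc1a3, Glul and Gdf10 were each above it in both groups. Some other markers of granule cell progenitors stood higher than Atoh1. Zic1 averaged 230 FPKM in cKO and 255 FPKM in control, and Mfap4 211 FPKM in cKO and 327 FPKM in control. Both were above Slc1a3, Glul and Gdf10 in each group.

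RefSeq promoter windows (build GRCm38.p6, from 250 bases before to 50 bases after the annotated start, on the strand of the gene) were listed for 8 of the 10 genes, in 9 windows. Those of 3 genes that rose, Gfap, Slc1a3 and Gdf10, and of Fabp7, which was not called, are shown so that genes that moved together can be read beside one that did not. Capitals mark matches on either strand to TTGGC (core of the NFI site), TTCNNNGAA (STAT), TGGGAA (RBPJ), the SOX core ACAAT, the longer SOX pattern ACAAAG, and the TATA box TATAAA, which do not overlap each other here.
Gfap, chr11:102897151-102897450, minus strand: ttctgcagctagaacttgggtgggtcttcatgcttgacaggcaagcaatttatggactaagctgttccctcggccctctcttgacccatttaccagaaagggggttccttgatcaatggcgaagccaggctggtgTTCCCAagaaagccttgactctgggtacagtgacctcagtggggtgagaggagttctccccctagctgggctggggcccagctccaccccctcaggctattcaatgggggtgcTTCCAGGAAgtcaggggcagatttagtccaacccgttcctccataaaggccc
Slc1a3, chr15:8710758-8711057, minus strand: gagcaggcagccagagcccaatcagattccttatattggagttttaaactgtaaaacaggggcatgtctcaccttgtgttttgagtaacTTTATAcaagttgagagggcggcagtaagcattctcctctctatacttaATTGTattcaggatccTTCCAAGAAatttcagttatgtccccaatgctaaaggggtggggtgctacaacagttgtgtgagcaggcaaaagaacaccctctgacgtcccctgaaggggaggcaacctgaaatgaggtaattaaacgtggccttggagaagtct
Gdf10, chr14:33923337-33923636, plus strand: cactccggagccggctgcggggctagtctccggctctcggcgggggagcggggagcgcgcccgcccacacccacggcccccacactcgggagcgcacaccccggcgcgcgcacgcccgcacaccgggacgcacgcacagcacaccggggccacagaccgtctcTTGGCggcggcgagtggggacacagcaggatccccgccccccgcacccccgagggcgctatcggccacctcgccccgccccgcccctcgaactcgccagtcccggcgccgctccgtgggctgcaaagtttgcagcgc
Fabp7, chr10:57784673-57784972, plus strand: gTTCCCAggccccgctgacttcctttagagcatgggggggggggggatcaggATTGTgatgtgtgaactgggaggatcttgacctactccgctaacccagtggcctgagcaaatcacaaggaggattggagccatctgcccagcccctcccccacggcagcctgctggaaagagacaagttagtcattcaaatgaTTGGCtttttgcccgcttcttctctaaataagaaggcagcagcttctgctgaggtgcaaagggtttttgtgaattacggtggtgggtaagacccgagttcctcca

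The STAT pattern was found in 2 of the 9 windows, those of Gfap, starting 2 bases before the annotated start, and of Slc1a3, starting 96 bases before it. Of 32851 windows of all genes 8.30% held it. The RBPJ pattern, of the factor through which Notch acts, was found in the windows of Gfap, Aldh1l1 and Fabp7 and in 25.6% of all windows. The NFI core was found in 4 of the 9 windows (Fabp7, Gdf10, Glul and 1 of the 2 of Hopx) and in 46.7% of all. ACAAT was found in 4 windows (Fabp7, Nes, Slc1a3 and 1 of Hopx) and in 31.0% of all, and ACAAAG in none of the 9 and in 18.7% of all. TATAAA was found in the window of Slc1a3 and in 13.6% of all. The Slc1a3 match lay on the strand opposite to the gene, starting 161 bases before the annotated start. No pattern was shared by all of the genes that rose and had a window. The windows also differed in base composition: G and C made up 77.3% of the Gdf10 window, which held 42 CG dinucleotides, against 55.7% and 3 for Gfap, 45.3% and 3 for Slc1a3, and a median of 52.7% and 7 over all windows.

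The water channel and the glutamate transporter both rose. Aqp4, the main water channel of astrocyte endfeet, measured 52.1, 48.1 and 50.4 FPKM in the cKO libraries and 35.2, 31.6 and 36.6 FPKM in the control libraries. The lowest cKO library was well above the highest control library. The difference was 0.53 ± 0.06 (SE) with an adjusted p of 0.00161, a 1.46-fold ratio of means. Slc1a3, which encodes the glutamate transporter GLAST of Bergmann glia and astrocytes, measured 155.7, 150.1 and 148.0 FPKM in cKO and 135.5, 128.7 and 131.8 FPKM in control. The groups did not overlap, but the step between them was smaller, 0.19 ± 0.04 (SE) with an adjusted p of 0.0202. That call was lost without cKO replicate 2 (adjusted p of 0.0760), without control replicate 2 (0.0691) and without control replicate 3 (0.0554). It was also lost with no filter on low values (adjusted p of 0.0586), with upper quartile scaling (0.11, adjusted p of 0.121) and once a trend with gene length was removed (0.11, adjusted p of 0.111).

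Both intermediate filament genes rose. Gfap, the filament protein of mature and reactive astrocytes and of Bergmann glia, measured 19.4, 20.2 and 20.4 FPKM in cKO and 14.1, 13.9 and 12.99 FPKM in control. Each cKO library was above each control library and the spread within a group was small, with a coefficient of variation of 2.67% in cKO and 4.21% in control. The difference was 0.52 ± 0.05 (SE) with an adjusted p of 0.000716, and the ratio of means was 1.47. Nes encodes nestin, a filament protein of radial glia and neural progenitors, and measured 15.5, 16.4 and 16.0 FPKM in cKO and 12.7, 12.0 and 12.6 FPKM in control. These groups did not overlap either, with a difference of 0.34 ± 0.04 (SE) and an adjusted p of 0.00267.

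The lipid-binding and metabolic genes were not called. Fabp7 measured 478.5, 524.4 and 507.6 FPKM in cKO and 527.4, 552.6 and 518.7 FPKM in control, and cKO replicate 2 lay within the control range. Its difference of -0.08 ± 0.06 (SE) had an adjusted p of 0.324, and its sign turned with quantile normalization (0.0031). Aldh1l1, a folate enzyme used as a general astrocyte marker, measured 39.6, 41.6 and 40.8 FPKM in cKO and 36.8, 38.0 and 35.3 FPKM in control. The groups did not overlap, yet the difference of 0.14 ± 0.04 (SE) missed the threshold with an adjusted p of 0.0546. It passed in 4 of 17 alternative settings: quantile normalization (adjusted p of 0.0265), TPM scaling (0.0324), array weights (0.0186) and voom on reads (0.0229). Aldh1l1 was not called with any library left out (adjusted p up to 0.177), with upper quartile scaling (0.323) or with the length trend removed (0.143). Glul, which encodes glutamine synthetase, measured 104.0, 106.3 and 100.2 FPKM in cKO and 102.3, 97.3 and 107.5 FPKM in control. The libraries of both groups interleaved, with a difference of 0.02 ± 0.05 (SE), an adjusted p of 0.835 and a sign that turned in 4 of 17 alternative settings, among them upper quartile scaling and removal of the length trend.

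The transcription regulators had like differences with unlike spread. Sox9, a SOX factor that drives glial fate and marks astroglia, measured 17.9, 19.0 and 17.7 FPKM in cKO and 14.7, 14.0 and 16.2 FPKM in control. The groups did not overlap, and the difference was 0.27 ± 0.06 (SE) with an adjusted p of 0.0205. The call was lost without cKO replicate 2 (adjusted p of 0.0789), without control replicate 1 (0.0536), without control replicate 2 (0.0651), with no filter on low values (0.0622) and with upper quartile scaling (0.0622). Hopx, a homeodomain-only protein gene of radial glia and astroglia, measured 12.9, 16.3 and 16.8 FPKM in cKO and 11.4, 13.1 and 13.2 FPKM in control. The low cKO library, replicate 1, fell inside the control range, and the coefficient of variation of 13.7% in cKO was the largest of the 10 genes in either group. Its difference of 0.26 ± 0.10 (SE) was not called, with an adjusted p of 0.0975, and became 0.37 with an adjusted p of 0.0167 without cKO replicate 1. It was also called with array weights (adjusted p of 0.0269) and voom on reads (0.0476).

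Gdf10, a secreted ligand of the TGF-beta family also known as BMP3B and a marker of Bergmann glia, rose. It measured 100.6, 89.6 and 84.0 FPKM in cKO and 65.8, 67.5 and 71.7 FPKM in control, with every cKO library above every control library. The difference was 0.41 ± 0.07 (SE) with an adjusted p of 0.00692. Replicate 1, which was the highest cKO library for Gdf10 and the lowest for Hopx, did not decide the call, since without it the difference was 0.34 with an adjusted p of 0.0116. Aqp4, Gfap, Nes and Gdf10 were called under all 17 alternative settings.

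**Figure D2:**
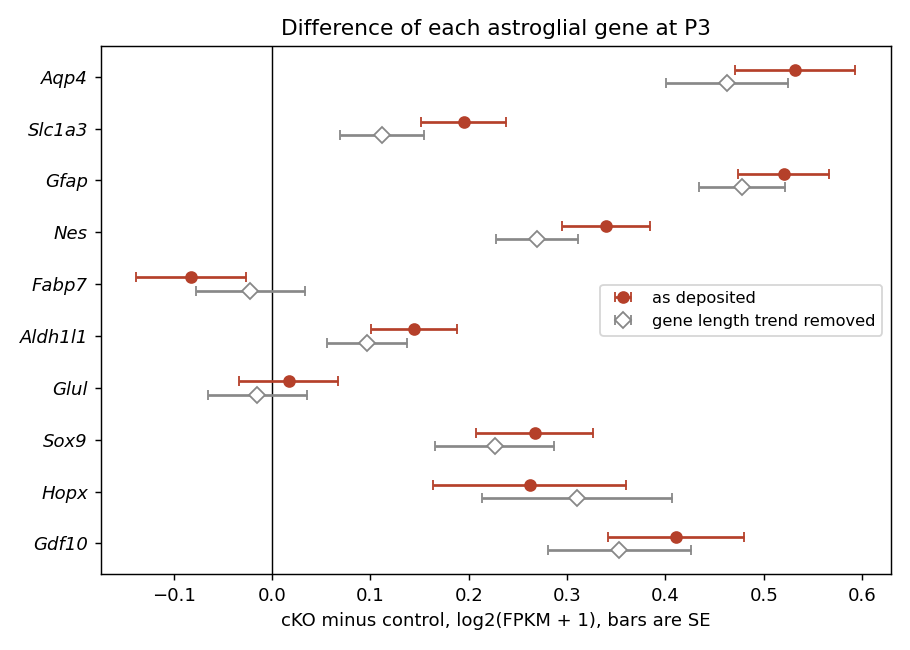
Difference of each gene in mean log2(FPKM + 1), cKO minus control, with its SE, as deposited (red circles) and with a gene length trend removed (open diamonds). Aqp4, Gfap, Gdf10 and Nes lie farthest to the right in the deposited values, and Fabp7 and Glul lie near 0.

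In the authors' deposited table the same 6 genes were higher at an adjusted p under 0.05 and Fabp7 was lower. Of the genes tested here that table called 12.1% higher and 13.4% lower. Its log2 fold change for Fabp7 was -0.14 with an adjusted p of 0.0151, whereas limma gave no call for this gene. Its log2 fold changes were 0.50 for Gfap, 0.49 for Aqp4, 0.37 for Gdf10, 0.31 for Nes, 0.23 for Sox9 and 0.14 for Slc1a3. The median of its fold changes over the tested genes was -0.02, beside the 0.03 given above.

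Differences in these libraries moved with gene length, so the length of each member is given beside its result. The median difference was -0.06 for the 1456 tested genes longer than 1000 and up to 2000 bases and 0.09 for the 1687 genes over 9000 bases. Fabp7 (1250 bases) and Hopx (1516 bases) are the shortest members and Slc1a3 (8537 bases) the longest. Gfap (4218 bases), Sox9 (4135 bases), Aldh1l1 (4516 bases) and Glul (3782 bases) are of similar length, yet their differences were 0.52, 0.27, 0.14 and 0.02. After removal of the trend, a setting added after the data were seen, 5 of the 10 genes were called, all higher, and over all 13538 tested genes 1179 were called higher and 1031 lower. Aqp4 kept 0.46, Gfap 0.48, Gdf10 0.35, Nes 0.27 and Sox9 0.23, and Slc1a3 was not called. The median of the 10 genes was then 0.25, beside -0.0037 over all tested genes.

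**Figure D3:**
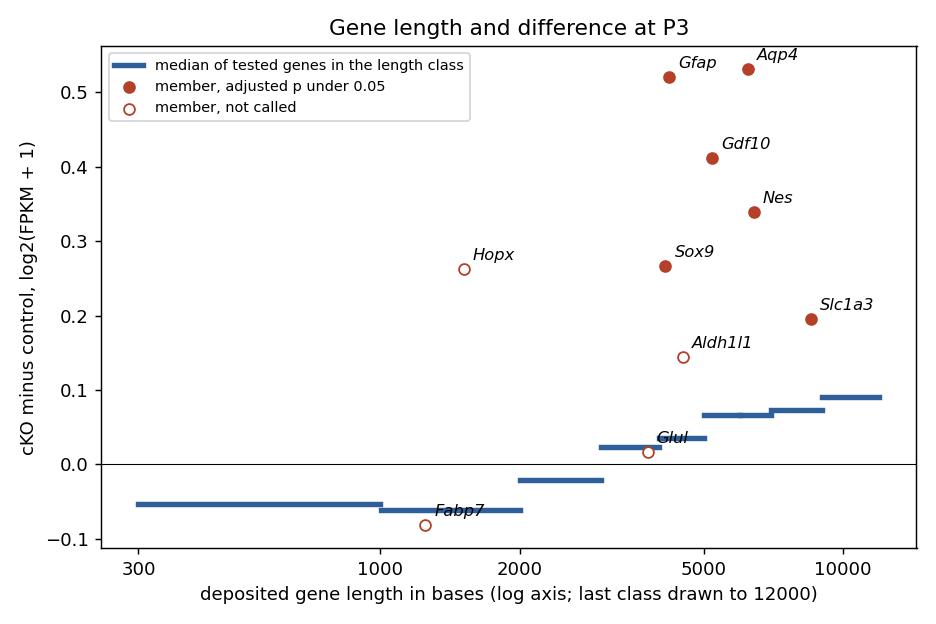
Difference of each of the 10 genes (circles, filled where called) against the deposited gene length on a log axis, with the median difference of all tested genes in each length class (blue bars). The class medians are below 0 up to 3000 bases and above 0 in the longer classes, and Fabp7 and Glul lie close to the bar of their class while Gfap, Aqp4 and Gdf10 lie far above theirs.

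Ratios between members within a library do not depend on library scaling, but they carry the length trend given above. The ratio of Gfap to Slc1a3 was 0.125, 0.135 and 0.138 in cKO and 0.104, 0.108 and 0.0986 in control, and that of Aqp4 to Slc1a3 was 0.335, 0.321 and 0.341 in cKO and 0.260, 0.246 and 0.278 in control. Neither overlapped between groups, and the ratio of means was 1.28 for Gfap and 1.27 for Aqp4. Those of Nes and Gdf10 to Slc1a3 did not overlap either, with ratios of means of 1.12 and 1.17. Fabp7 went the other way, at 3.07, 3.49 and 3.43 times Slc1a3 in cKO and 3.89, 4.29 and 3.94 times in control. These are the shortest and the longest member, and with the trend removed their differences were -0.02 for Fabp7 and 0.11 for Slc1a3. Glul was at 0.668, 0.708 and 0.677 times Slc1a3 in cKO and 0.755, 0.755 and 0.816 times in control, again with no overlap. Slc1a3 was itself called higher in cKO, so a gene that stays level has a lower ratio to it there. The FPKM values of Fabp7 and Glul themselves overlapped between groups. Ratios of Aldh1l1, Hopx and Sox9 to Slc1a3 overlapped between groups. These ratios are a description and were not tested.

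Other astroglial genes moved in the same direction in part. Of 46 tested genes of a list of 48, 16 rose, 3 fell and 27 were not called, with a median difference of 0.18. After removal of the length trend 13 were higher and 3 lower, with a median of 0.14. With upper quartile scaling 9 were higher and 4 lower. Slc6a11, a GABA transporter gene of astrocytes, averaged 22.03 FPKM in cKO and 15.8 FPKM in control, with a difference of 0.45 and an adjusted p of 0.00160. Ttyh1, a glial chloride channel gene, averaged 36.2 FPKM in cKO and 28.1 FPKM in control. The genes that fell were Septin4, a septin gene of Bergmann glia (12.4 FPKM in cKO and 17.6 FPKM in control), Clu, which encodes clusterin (12.7 FPKM in cKO and 16.9 FPKM in control), and Prdx6, a peroxidase gene (24.9 FPKM in cKO and 28.8 FPKM in control). Of the abundant genes of the list, Apoe, Sparcl1 and Cst3 were not called, while Vim, Plpp3, Pla2g7 and Ndrg2 were called higher. Plpp3 averaged 65.7 FPKM in cKO and 56.6 FPKM in control. Aldoc, at 21.4 FPKM in cKO and 20.6 FPKM in control, was not called. Without cKO replicate 2 the calls in this list numbered 7 higher and 2 lower.

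Genes of the endfoot, where Aqp4 is anchored, were called higher in 5 of 9 cases and lower in none, with a median difference of 0.20. After removal of the length trend 4 were higher and none lower, with a median of 0.19. Of these calls Mlc1, Kcnj10 and Hepacam are also counted in the list of other astroglial genes. Mlc1, which encodes a membrane protein of endfeet, averaged 39.2 FPKM in cKO and 31.5 FPKM in control with a difference of 0.31. Kcnj10, the gene of the potassium channel Kir4.1, averaged 10.9 FPKM in cKO and 8.80 FPKM in control, and Agrn, which encodes agrin, 38.7 FPKM in cKO and 31.9 FPKM in control. Among 3 tested aquaporins Aqp4 rose and Aqp1, the water channel of choroid plexus, fell to 3.26 FPKM in cKO, against 7.37 FPKM in control.

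Of 14 genes of glutamate and glutamine handling, a list that holds Slc1a3 and Glul, 5 rose, Slc1a3 among them, and 1 fell, with a median of 0.16. After removal of the length trend 3 were higher and 2 lower, with a median of 0.07. Slc38a5, a glutamine transporter gene, averaged 26.9 FPKM in cKO and 18.4 FPKM in control with a difference of 0.52 and an adjusted p of 0.000444. Glud1, which encodes glutamate dehydrogenase, averaged 64.4 FPKM in cKO and 55.4 FPKM in control, and Slc17a6, a vesicular glutamate transporter gene of neurons, 10.2 FPKM in cKO and 8.51 FPKM in control. The member that fell was Slc17a7, a vesicular transporter gene of granule neurons. Of 10 folate enzymes, Aldh1l1 included, 2 were lower, Tyms and Shmt2, and none higher. Of the fatty acid binding genes beside Fabp7, Fabp5 averaged 89.1 FPKM in cKO and 107 FPKM in control with an adjusted p of 0.0535 and Fabp3 had an adjusted p of 0.907.

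All 8 tested intermediate filament and linker genes were called, 5 higher and 3 lower. Those higher were Gfap, Nes, Vim, Synm and Plec, and those lower were the neuronal filament genes Nefl, Nefm and Ina. Vim, which encodes vimentin, averaged 200 FPKM in cKO and 179 FPKM in control, and Nefl averaged 6.77 FPKM in cKO and 10.4 FPKM in control. After removal of the length trend 3 were higher and the same number lower. Among Gdf10 and 8 other tested genes of its signalling 3 were higher and none lower, Gdf10 itself, the receptor gene Tgfbr2 (6.70 FPKM in cKO and 5.02 FPKM in control) and Smad3 (15.6 FPKM in cKO and 12.8 FPKM in control).

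Of 19 tested transcription regulators of glia and radial glia 8 rose and none fell, with a median of 0.21, and after removal of the length trend 6 were higher and 1, Nfic, lower, with a median of 0.14. Id3, a target of BMP signals, averaged 59.6 FPKM in cKO and 47.1 FPKM in control, Sox2, a factor of neural stem cells and glia, 47.4 FPKM in cKO and 37.0 FPKM in control, and Zbtb20 2.88 FPKM in cKO and 1.99 FPKM in control. The related genes Id1 and Id2 of this list were not called, with differences of -0.05 and -0.17. Of 25 tested genes of the Notch, FGF, BMP and STAT3 signals known to act on these glia 9 rose and 1 fell. The Notch ligand gene Jag1 averaged 5.05 FPKM in cKO and 3.04 FPKM in control, Notch1 7.66 FPKM in cKO and 5.24 FPKM in control, and the ligand gene Dll1 8.67 FPKM in cKO and 5.41 FPKM in control. Endothelial cells and neuronal precursors also use these Notch genes. After removal of the length trend the calls in the signal list were 6 higher and 2 lower.

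Markers of other cell types moved in the same libraries. Endothelial markers were called higher in 11 of 12 cases, with a median of 0.66 and a summed level of 250 to 265 FPKM in cKO and 143 to 155 FPKM in control. Pericyte and smooth muscle markers were higher in 8 of 8 tested cases, with a median of 0.52 and a sum of 109 to 112 FPKM in cKO and 73.4 to 74.2 FPKM in control. Oligodendrocyte lineage markers were higher in 9 of 11 (median 0.42, sum of 199 to 218 FPKM in cKO and 160 to 167 FPKM in control) and microglial markers in 6 of 11 (median 0.26, 291 to 338 FPKM in cKO and 243 to 247 FPKM in control). GABAergic interneuron markers were higher in 9 of 12 and lower in 1 (median 0.49, 168 to 187 FPKM in cKO and 130 to 142 FPKM in control). Purkinje cell markers were higher in 3 of 7 (median 0.18, 23.3 to 24.8 FPKM in cKO and 19.2 to 21.0 FPKM in control). The median of the 10 astroglial genes, 0.26, was below those of the endothelial, pericyte, oligodendrocyte and interneuron lists.

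Markers of 3 further lists were called lower in part. Choroid plexus and ependyma markers were lower in 6 of 10 cases and higher in 1, with a sum of 671 to 749 FPKM in cKO and 1380 to 1470 FPKM in control. Most of that sum was the choroid plexus gene Ttr, which averaged 665 FPKM in cKO and 1370 FPKM in control. The marker called higher was Otx2 (22.3 FPKM in cKO and 19.4 FPKM in control, limma adjusted p of 0.0244). Its adjusted p became 0.0639 after removal of the length trend. The ependymal markers Foxj1, Ccdc153 and Tmem212 did not fall. Their differences were 0.18, 0.24 and 0.21, and none was called. Granule cell progenitor markers were lower in 4 of 14 cases, with a median of -0.15 and a sum of 1090 to 1140 FPKM in cKO and 1310 to 1390 FPKM in control. Within that sum Mfap4 averaged 211 FPKM in cKO and 327 FPKM in control. The 10 progenitor markers not called ranged from -0.22 for Zic2 to 0.13 for Ptch1, with Atoh1 at -0.09 and Gli1 at 0.02. Markers of differentiating granule neurons were lower in 5 of 10, with 676 to 689 FPKM in cKO and 833 to 888 FPKM in control. No marker of these lists was at 0 in all 6 libraries, though Pcp2 and Pcp4 of Purkinje cells, Gabra6 of granule neurons and Mog of oligodendrocytes were among those below the filter. The 10 astroglial genes summed to 996.2, 1032 and 1002 FPKM in cKO and 955.9, 968.6 and 956.6 FPKM in control, and without Fabp7 to 517.7, 507.7 and 494.4 FPKM in cKO and 428.5, 416.0 and 438.0 FPKM in control. After removal of the length trend 7 of the 14 progenitor markers and 6 of the 10 granule neuron markers were lower. With it removed 1 of the 7 Purkinje markers was higher, and of the 11 oligodendrocyte markers 8 were higher and 1 lower. The part of these shifts in the results on astroglial genes was not tested.

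**Figure D4:**
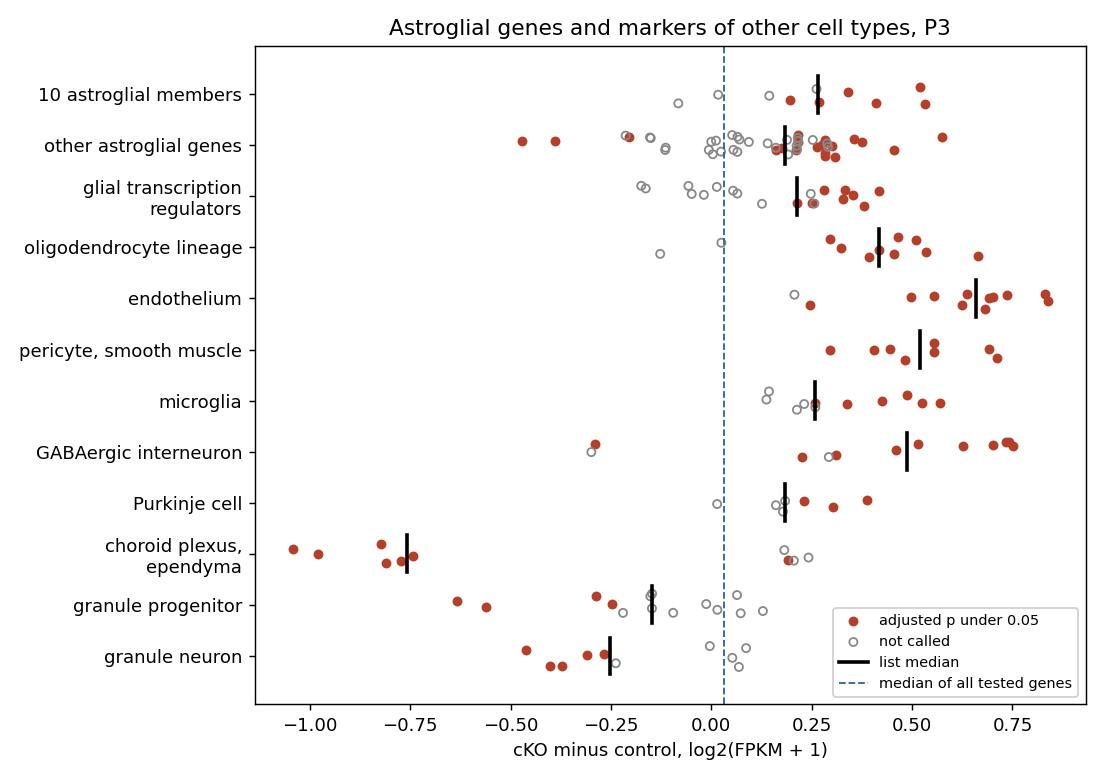
Difference of each tested gene in mean log2(FPKM + 1), cKO minus control, for the 10 astroglial genes, other astroglial genes, glial transcription regulators and the marker lists of other cell types. Filled points were called, black bars are list medians (0.26 for the 10 genes, 0.66 for endothelium) and the dashed line is the median of all tested genes, 0.03.

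For each called member the 2 genes with the nearest profile over the 6 libraries were sought among 8295 others with a mean of at least 5 FPKM, by the Euclidean distance between values of log2(FPKM + 1) centred on each gene's mean. For Gfap these were Lyz2 (distance 0.0609) and Pam (0.0651), and for Aqp4 Masp1 (0.0877) and Lrp8 (0.139). For Gdf10 they were Slc2a1 (0.0763) and Olig2 (0.0884), for Nes Trim11 (0.0280) and Klhl5 (0.0450), for Slc1a3 Robo1 (0.0370) and Phf10 (0.0395), and for Sox9 Rprm (0.0782) and Tmem64 (0.0829). Lyz2 averaged 41.0 FPKM in cKO and 27.9 FPKM in control with a difference of 0.54, close to the 0.52 of Gfap. Over 6 libraries in 2 groups, nearness mainly says that the difference and the spread were alike, and the distances are a description.

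Some members overlap other annotated genes, and how reads in shared bases were assigned, by strand or otherwise, is not stated in the labels. Slc1a3 shares 2968 bases with Gm37310 on the same strand (2.39 FPKM in cKO and 1.54 FPKM in control), and Aqp4 overlaps Gm50048 on the other strand (0.73 FPKM in cKO and 0.706 FPKM in control). Genes on either strand that overlap Aldh1l1, Hopx and Glul averaged at most 0.219 FPKM in either group.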

How the data were processed

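RNA of granule cell progenitors was poly(A)-selected and sequenced as dUTP-marked paired-end libraries, per the labels' protocols. Tools named in the submitters' processing notes, with no role or order, are cutadapt 1.9, HISAT2 2.2.1, StringTie 2.1.6, DESeq2 and edgeR, and the build is mm10. The authors deposited FPKM values for 3 cKO and 3 control libraries at P3, and beside them a mean signal over all libraries, a log2 fold change and p-values of their own comparison, per the file headers. The cKO columns carry the prefix ZM, read as cKO because the other columns are named WT. FPKM times the deposited gene length gave whole reads within 0.02 reads for every value, which set the depths. At these depths 3 reads in a gene of 1 kb are worth 0.0566 to 0.103 FPKM, a floor for counting error only.

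FPKM is not a count, so log2(FPKM + 1) was tested with limma 3.58.1 (R 4.3.3, intensity trend, two-sided, Benjamini-Hochberg adjustment over the 13538 genes whose mean reached 1 FPKM). The members and gene lists were chosen with earlier results of these data known. All list genes but Emx2 were matched. Named besides the members were Znhit3, up to 3 called genes with the smallest p of each list and the nearest profiles. Atoh1, Clu, Prdx6, Apoe, Sparcl1, Cst3, Aldoc, Slc17a7, Fabp3, Fabp5, Vim, Synm, Plec, Ina, Hepacam, Nfic, the markers named as below the filter and the genes of the closing section were named after their values were seen. So were Foxj1, Ccdc153, Tmem212, Otx2, Gli1, Ptch1, Zic1, Zic2, Plpp3, Pla2g7, Ndrg2, Id1 and Id2. Some genes that the rule names from the marker lists are given only in the counts.

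Alternatives were a pseudocount of 0.1, array weights, voom on recovered reads, no filter or one at 5 FPKM, 3 other scalings (TPM, quantile, upper quartile), a fit with no intensity trend, a replicate block, leaving out each library and, added after the data were seen, removal of a gene length trend. No library of a group was a duplicate of another, since chi-square over its degrees of freedom was at least 4.84 in each pair. The positions in the deposited table differ from GRCm38 and are not printed.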

Additional observations from a re-analysis of the deposited data

How the results depend on the processing

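The count of 2590 called genes became 1271 with no filter on low values and between 1207 (without cKO replicate 2) and 2195 with 1 library left out. The other settings, apart from the replicate block below, left it within 1.5 times. The 6 called members numbered 4 to 8 in all settings, and none was called lower in any. In the list of other astroglial genes 19 calls became between 9 and 17 with 1 library left out, the lowest without cKO replicate 2. Signs turned for uncalled members only: Fabp7 measured 0.0031 with quantile normalization, and Glul measured -0.069 with upper quartile scaling, -0.015 after removal of the length trend and between -0.019 and 0.053 with 1 library left out. Deviations of same-numbered libraries correlated at -0.02, 0.04 and -0.10, so no pairing by replicate number was seen. With 3 libraries a group these correlations cannot exclude such pairing. With the replicate block 1542 genes and 6 members were called, Sox9 lost its call (adjusted p of 0.0561) and Hopx gained one (adjusted p of 0.0348). The causes were not tested. With 640 to 1063 reads a library Hopx had the fewest reads of the members, and each group held 3 libraries.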

Other observations

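Among the signals known to act on Bergmann glia, the STAT3 branch held calls in both directions. Its genes Lifr, Jak1 and Jak2 were not called (limma adjusted p of 0.302, 0.136 and 0.138), and Cntf and Lif were below the filter. Stat3, the transcription factor gene, rose to 11.6 ± 0.24 FPKM in cKO, against 8.81 ± 0.41 FPKM in control (SD, n = 3 each), with a limma adjusted p of 0.00276. Il6st, which encodes the shared receptor chain gp130, averaged 8.16 FPKM in cKO and 6.50 FPKM in control with an adjusted p of 0.0203, which became 0.0523 after removal of the length trend. Socs3, which encodes a feedback inhibitor of this pathway and is one of its targets, fell to 11.4 ± 0.35 FPKM in cKO, against 13.5 ± 0.13 FPKM in control (SD, n = 3 each), with an adjusted p of 0.0101. The BMP receptor gene Bmpr1b averaged 4.30 FPKM in cKO and 2.87 FPKM in control with an adjusted p of 0.00369.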
